A study of Mus musculus with 8 samples.

Results

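The genes described here mark lymphocytes. They number 29, of which 8 are B cell genes, 17 are T cell genes and 4 are genes of natural killer (NK) and other cytotoxic cells. A probe belonged to the set when its accession led to 1 of these symbols in a RefSeq table of mouse genes. There were 38 such probes, 37 of them bright enough to keep, and each gene is given by the brightest of its kept probes. All 29 genes were measured, among 25141 gene names tested in all, and each of the 29 chosen probes was well above background in all 8 samples.

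White adipose tissue came from mice aged 5 weeks, of the 129 × C57BL/6 background, kept on chow. The WT group held 4 wild-type samples, and the Ad/NICD group held 4 samples from mice that overexpress the Notch1 intracellular domain, the part of the receptor that enters the nucleus and switches on genes. Sources used here do not give the promoter that drives it, the cells that make it, the depot or the sex of the mice. The labels call the samples biological replicates and do not say whether each came from its own animal, so the tests measure the spread between these samples.

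B cells carry an antigen receptor whose signalling parts are Cd79a and Cd79b, T cells carry a receptor that signals through the CD3 chains, and NK cells and killer T cells store granzymes that kill target cells. Adipose tissue of lean mice has resident T cells, including regulatory T cells, and B cells and innate lymphocytes. Some mouse fat depots enclose a lymph node, where T cells and B cells lie in separate zones that stromal cells organise with chemokines. Notch signalling is known for directing blood progenitors towards the T cell fate and away from the B cell fate in the thymus.

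Each of the 4 arrays carried the WT sample and the Ad/NICD sample of 1 replicate number in 2 colours. Values are log2 ratios of Ad/NICD over WT within an array, or log2 levels of 1 sample after scaling between arrays. Red (Cy5) was taken as Ad/NICD and green (Cy3) as WT, as the likely direction, because Cy3 goes to controls in the labelling protocol and the authors' value table holds green in its WT columns. Each sample's dye tag has these reversed; were the tags right, all signs below would turn and the genotypes of all levels would be exchanged. No array had its dyes swapped, so dye and genotype cannot be told apart. In bulk tissue, fewer cells of a type and less RNA per cell cannot be told apart either.

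A channel had 58.1% to 68.6% of its spots well above background, and precision is limited by there being 4 arrays. Notch1, the overexpressed gene, had levels of 9.08, 8.60, 8.86 and 8.67 in WT samples 1 to 4 and 10.32, 8.95, 8.85 and 8.53 in Ad/NICD samples 1 to 4, with a ratio of 0.36 ± 0.24 (SE, n = 4) that did not pass the test; sources used here do not say whether its probe lies in the transgene. With the mean of its kept probes, the Notch1 ratio was 0.20. Of 7 genes listed as a check of Notch, Notch1 and Heyl among them, 5 lay above 0 and 2 below. Their median was 0.36, and 1 passed the adjusted test. This was Heyl, a direct Notch target, which was higher on 4 of 4 arrays at 2.87 ± 0.17 (adjusted p = 0.0399, limma). That adjusted p lay between 0.0671 and 0.0877 with the processed signals, the authors' value table, median centring or no filter on dim probes, and was 0.106, 0.187 and 0.405 without replicate 1, 2 or 3. All 10 adipocyte genes were well above background in all 8 samples; their median ratio was -0.77, with 7 of 10 below 0 and 1 past the adjusted test (Acvr1c, at -1.71 ± 0.11). All 7 skeletal muscle genes were below 0 on 4 of 4 arrays (median -2.05), with none past the adjusted test. The part of fat and muscle content in the lymphocyte values was not tested. Both samples of replicate 4 stood apart from the other 6. Xist, the RNA of the inactive X chromosome, was at 6.12 and 5.87 in them and between 10.15 and 10.45 elsewhere. Ddx3y, a gene of the Y chromosome, was at 9.96 and 9.55 in them and between 5.75 and 5.86 elsewhere. Eif2s3y, also on the Y chromosome, was at 10.94 and 10.82 in them and between 5.81 and 6.06 elsewhere. Replicate 4 thus had a male pattern of these genes and replicates 1 to 3 a female pattern. The median of 6 mammary epithelium genes was at -2.79 and -2.78 in replicate 4, relative to the genes' means. In WT sample 4, 7 skeletal muscle genes also had a median 4.30 above their means.

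Over all gene names, 12 (0.0477%) passed an adjusted p of 0.05 in limma's fit of the 4 ratios against 0, and none of the 29 lymphocyte genes did. The lowest adjusted p among the 29 was 0.169, for Gzma. Without adjustment, 3 of the 29 lay under 0.05 (Gzma, Ms4a1 and Cd79b, all lower in Ad/NICD), beside 15.2% of all gene names and 8.97% of all gene names that did so in the lower direction. The array as a random block called 1.97% of all gene names, channels without a block called 1.02%, and neither called any of the 29. For none of the 29 did the 4 WT levels and the 4 Ad/NICD levels stay apart, while the groups did not overlap for 5.58% of all gene names with Ad/NICD lower and 4.21% with Ad/NICD higher. The sign was the same on 4 of 4 arrays for 1 of the 29 (Gzma, lower), beside 13.3% of all gene names lower and 11.2% higher on 4 of 4.

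The 3 classes had different ratios on the same arrays. On arrays 1 to 4, numbered by replicate, the median ratio of the B cell genes was -0.35, 0.27, -0.32 and -0.32. For the T cell genes it was 0.41, 0.43, -0.06 and -0.70. The NK and cytotoxic genes had medians of -0.91, 0.05, -0.78 and -0.14, and the median of all gene names stayed between -0.02 and 0.01 on every array. On array 1 the T cell genes were thus above 0 where the B cell and cytotoxic genes were below, and on array 4 the T cell genes lay lowest. The B cell median minus the T cell median was -0.75, -0.16, -0.26 and 0.38, so its sign was the same on 3 of 4 arrays; it was given no test, because the members were chosen with results known.

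**Figure D1:**
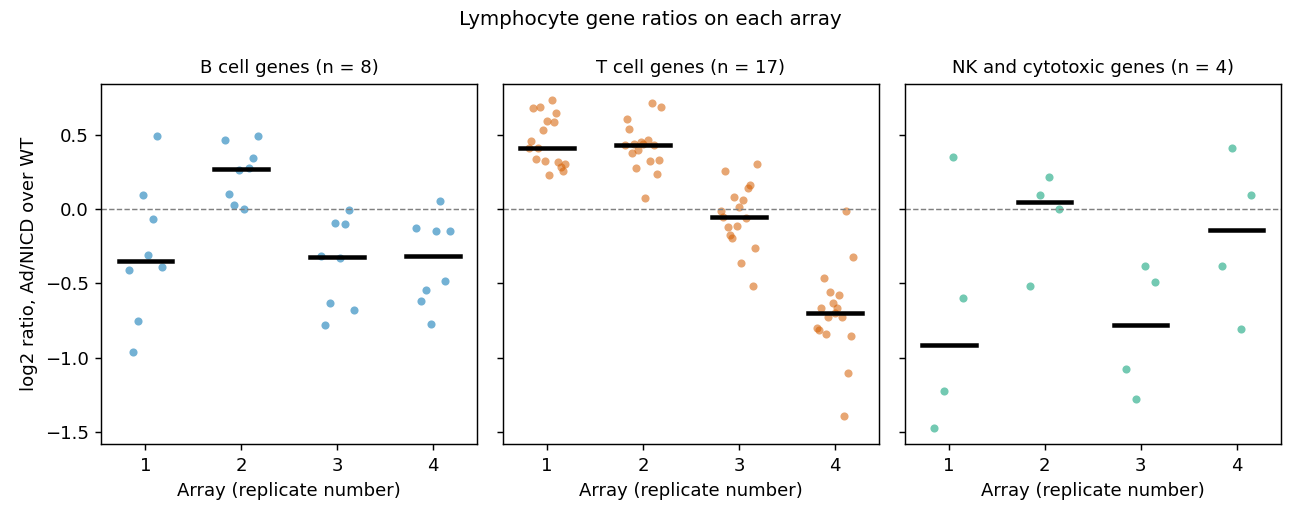
Each point is the log2 ratio of Ad/NICD over WT for 1 gene on 1 array (x axis, replicate number), in a panel per class, and black bars are class medians. All 17 T cell genes lay above 0 on arrays 1 and 2 and below 0 on array 4, whereas 6 of 8 B cell genes lay below 0 on array 1. When arrays were centred on their median in place of loess, the T cell median on array 1 was -0.50, against -0.68 for all gene names.

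Averaged over arrays, 6 of 8 B cell genes lay below 0 (class median -0.15), as did 4 of 17 T cell genes (class median 0.03) and 4 of 4 NK and cytotoxic genes (class median -0.37). The median of all gene names was -0.0059. Median centring of each array in place of loess moved the median of all gene names to -0.32 and put the class medians at -0.55 for B, -0.39 for T and -0.75 for NK and cytotoxic genes. Relative to all gene names these were -0.24, -0.08 and -0.43, so the T cell median changed its sign and the order of the classes stayed. The T cell median also rested on single arrays, at -0.10 without replicate 1, -0.08 without replicate 2 and 0.28 without replicate 4. The B cell median was -0.14, -0.27, -0.08 and -0.14 without replicates 1 to 4 in turn, and the NK and cytotoxic median -0.29, -0.51, -0.20 and -0.58. Both stayed below 0, and none of the 29 genes passed in any of these fits.

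Promoter sequence was available in the RefSeq table (GRCm38.p6) for 19 of the 29 genes, in 25 windows that cover the 250 bases before a start site. They were searched on both strands for TGGGAA, the core bound by RBPJ, which is the DNA-binding partner of the Notch1 intracellular domain, for the octamer ATTTGCAT of lymphoid genes, and for TGTGGT, a core bound by RUNX factors. TGGGAA was in 11 of the 25 windows (44.0%), from 10 genes: Cd22, Cr2, Fcer2a, Cd3e, Cd3g, Cd8a, Cd5, Lck, Zap70 and Lat. Among all 32851 windows of that length, 21.6% held it. TGTGGT was in 7 windows (28%, against 14.0% of all), and ATTTGCAT in 0 (against 1.6% of all). A match is a run of letters and not a measured binding site, and genes with TGGGAA were found among those above and those below 0. The windows of 1 gene per class follow, 5′ to 3′ on the gene's strand: Cd22 and Cd3e for a B and a T cell gene with TGGGAA, and Gzma as the gene that was lower on 4 of 4 arrays. Capitals mark TGGGAA, at 145 bases before the start in Cd22 and 123 in Cd3e, and the reverse complement of TGTGGT in Gzma, at 50 bases before the start; no matches overlapped.
Cd22 (chr7:30879029-30879278, minus strand): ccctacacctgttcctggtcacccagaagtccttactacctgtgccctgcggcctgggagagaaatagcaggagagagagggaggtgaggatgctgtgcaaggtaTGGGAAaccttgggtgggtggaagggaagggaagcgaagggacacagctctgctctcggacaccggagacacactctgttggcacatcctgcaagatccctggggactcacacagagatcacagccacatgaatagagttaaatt
Cd3e (chr9:45009612-45009861, minus strand): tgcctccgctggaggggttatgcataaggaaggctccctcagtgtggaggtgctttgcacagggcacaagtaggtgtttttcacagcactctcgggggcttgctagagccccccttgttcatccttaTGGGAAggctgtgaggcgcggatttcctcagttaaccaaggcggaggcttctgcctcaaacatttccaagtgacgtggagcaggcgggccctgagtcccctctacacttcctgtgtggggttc
Gzma (chr13:113100982-113101231, minus strand): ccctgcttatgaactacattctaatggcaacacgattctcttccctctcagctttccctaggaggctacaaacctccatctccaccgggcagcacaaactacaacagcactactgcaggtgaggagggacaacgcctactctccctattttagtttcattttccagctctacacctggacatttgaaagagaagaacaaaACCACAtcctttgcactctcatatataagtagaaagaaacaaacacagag

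Among the B cell genes, the B cell receptor chain Cd79b and the surface protein Ms4a1 (CD20) had the lowest ratios. The log2 level of Cd79b was 13.62, 13.19, 13.70 and 13.89 in WT samples 1 to 4 and 12.66, 13.30, 12.92 and 13.27 in Ad/NICD samples 1 to 4. Ad/NICD samples 1 and 3 lay below every WT sample, while WT sample 2 lay below Ad/NICD samples 2 and 4, so the groups overlapped. The ratio was -0.56 ± 0.18 (SE, n = 4), lower on 3 of 4 arrays, with an adjusted p of 0.261 (limma).

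Ms4a1 was high and low in the same samples. Its level was 11.84, 11.45, 11.88 and 12.24 in WT samples and 11.09, 11.48, 11.25 and 11.70 in Ad/NICD samples, with WT sample 4 highest and Ad/NICD sample 1 lowest. WT sample 2 lay below Ad/NICD samples 2 and 4. The ratio was -0.48 ± 0.14 (SE, n = 4), with an adjusted p of 0.235 (limma).

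The other chain of the receptor, Cd79a, gave ratios of -0.41, 0.46, -0.31 and -0.13 on arrays 1 to 4, with a mean of -0.10 ± 0.16. Blk, a kinase of the SRC family next to the receptor, gave -0.31, 0.00031, -0.33 and -0.15, a mean of -0.19 ± 0.08 with an adjusted p of 0.343 (limma). Blk was dim (levels of 6.24 to 6.73), and its mean depended on the processing. It was -0.39 with an offset of 10 and -0.69 with the authors' value table, where Cd79b was at -0.53. For Fcer2a (CD23), the low-affinity IgE receptor of follicular B cells, the ratios were -0.39, 0.49, -0.68 and -0.15. These 3 genes, Cd79b and Ms4a1 were below 0 on arrays 1, 3 and 4 and above 0 on array 2, an order of signs seen in 4.62% of all gene names.

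The remaining 3 B cell genes did not share that order. Pax5, the transcription factor that fixes B cell identity, stayed near 0 on every array but the second (-0.067, 0.28, -0.10 and 0.053). Cd22, an inhibitory receptor for sialic acids, gave 0.095, 0.27, -0.094 and -0.78. Cr2 (CD21), the complement receptor of B cells and of follicular dendritic cells, gave 0.49, 0.34, -0.0096 and -0.49. Cd22 and Cr2 thus had the signs of the T cell genes, above 0 on arrays 1 and 2 and below 0 on arrays 3 and 4. A second, dimmer probe of Cr2 gave -0.18, 0.07, -0.33 and -0.51, so its probes disagreed on array 1.

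Other B cell genes, a list of 21 of which 18 were measured, all had ratios below 0, with a median of -0.29 and array medians of -0.55, 0.18, -0.49 and -0.46. None passed the adjusted test, and 5 of the 18 lay under an unadjusted 0.05. Among all gene names 15.2% lay under it, and 8.97% did so in the lower direction. Cxcr5, the receptor that takes B cells into follicles, gave -0.76, 0.0057, -0.54 and -0.82. Cd38, an NAD-consuming surface enzyme, was the 1 gene of this list below 0 on 4 of 4 arrays (-0.27 ± 0.11). The sequence of array medians resembled that of the 8 B cell genes, with array 2 alone above 0.

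For the T cell genes, every sample's level is best seen in the receptor chain Cd3e. It was 11.68, 11.34, 11.94 and 12.46 in WT samples 1 to 4 and 12.14, 11.95, 11.88 and 11.65 in Ad/NICD samples 1 to 4. WT sample 4 was highest and WT sample 2 lowest, with the 4 Ad/NICD samples between them. The WT mean was 11.86 ± 0.47 and the Ad/NICD mean 11.91 ± 0.20 (SD, n = 4), and the ratio of 0.05 ± 0.25 had an adjusted p of 0.947 (limma).

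The other chains of the CD3 complex followed. Cd3d gave ratios of 0.41, 0.43, -0.013 and -0.80 and Cd3g 0.68, 0.54, 0.25 and -0.66 on arrays 1 to 4. The coreceptor Cd4, of helper T cells, gave 0.33, 0.38, -0.12 and -0.47. Cd8a and Cd8b1, the chains of the coreceptor of killer T cells, gave 0.41, 0.44, -0.18 and -0.84 and 0.69, 0.27, -0.20 and -0.72. Coreceptors of helper and killer cells therefore had the same signs on each array, and the means of these 5 genes lay between -0.042 and 0.20.

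Adhesion and costimulatory receptors shared these signs on arrays 1, 2 and 4. Cd2, which binds CD48, gave 0.53, 0.40, 0.084 and -0.56, and Cd5, an inhibitory receptor on T cells, 0.33, 0.45, -0.12 and -0.63. Cd6, a relative of Cd5, gave 0.59, 0.44, 0.013 and -0.70. Cd28, the main costimulatory receptor, gave 0.23, 0.073, -0.36 and -0.67 and had a mean below 0 (-0.18 ± 0.16).

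The kinases and adaptor that carry the receptor signal had some of the widest ratios between arrays. Lck, the kinase that starts the signal, gave 0.73, 0.46, 0.058 and -0.58. Zap70, the kinase it activates, gave 0.58, 0.32, -0.062 and -0.73. The adaptor Lat gave 0.64, 0.71, 0.14 and -1.39; its level in WT sample 4 was 12.33, against 10.94 in Ad/NICD sample 4. The mean ratios were 0.17 ± 0.22, 0.03 ± 0.22 and 0.028 ± 0.37 (SE, n = 4), each smaller than its SE.

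Foxp3, the transcription factor of regulatory T cells, was nearest to a uniform sign. Its levels were 7.52, 7.24, 7.45 and 8.04 in WT samples 1 to 4 and 7.84, 7.67, 7.61 and 8.02 in Ad/NICD samples 1 to 4. WT sample 4 was the highest of the 8 and the other 3 WT samples the lowest, so the groups overlapped. The ratio was 0.22 ± 0.091 (SE, n = 4; adjusted p = 0.338, limma) and was -0.12 under median centring, which is 0.20 relative to all gene names there. On array 4 its ratio of -0.012 was the highest of the 17 T cell genes, whose others ran from -1.39 to -0.32.

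Il7r, the receptor for the survival signal interleukin 7, had levels of 10.44, 10.36, 10.51 and 11.71 in WT and 10.72, 10.60, 9.996 and 10.61 in Ad/NICD samples. WT sample 4 stood above the other 7 and Ad/NICD sample 3 below them. Ccr7, the receptor that guides naive T cells into lymph nodes, gave ratios of 0.26, 0.33, -0.26 and -0.85, and Thy1, a surface protein of T cells and also of stromal cells and nerve, gave 0.30, 0.68, 0.30 and -0.32. Thy1 was also the 1 T cell gene of 17 not above its own mean in WT sample 4, at 13.73.

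Taken by sample, the T cell genes varied more in WT than in Ad/NICD. WT sample 2 held the lowest level for 15 of 17 T cell genes and WT sample 4 the highest for 12, with Ad/NICD sample 1 highest for 4. The SD within WT exceeded the SD within Ad/NICD for 15 of 17 T cell genes (88.2%), for 2 of 8 B cell genes and for 51.4% of all gene names. The median SD of the T cell genes was 0.39 in WT and 0.265 in Ad/NICD.

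The array of replicate 4 held the lowest ratio of all 17 T cell genes, beside 26.5% of all gene names. That count was 17 of 17 also with the deposited processed signals, with the authors' value table and with an offset of 10, and 14 of 17 with median centring. Second probes gave array 4 ratios of -0.07 for Cd4, -0.42 for Cd8a, -0.51 for Cd2, -0.36 for Cd6 and -0.68 for Zap70, in each case the lowest of that probe's 4 ratios; over arrays, the second probe of Cd8a had a mean of 0.05 against -0.042. Signs above 0 on arrays 1 and 2 and below 0 on arrays 3 and 4 were found for 10 T cell genes and 4.6% of all gene names, and signs above 0 on arrays 1 to 3 and below 0 on array 4 for 7 T cell genes and 8.09% of all. Replicate 4 was also the pair with low Xist and mammary epithelium genes, and its WT sample had the highest muscle genes; their part in the T cell values was not tested.

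**Figure D2:**
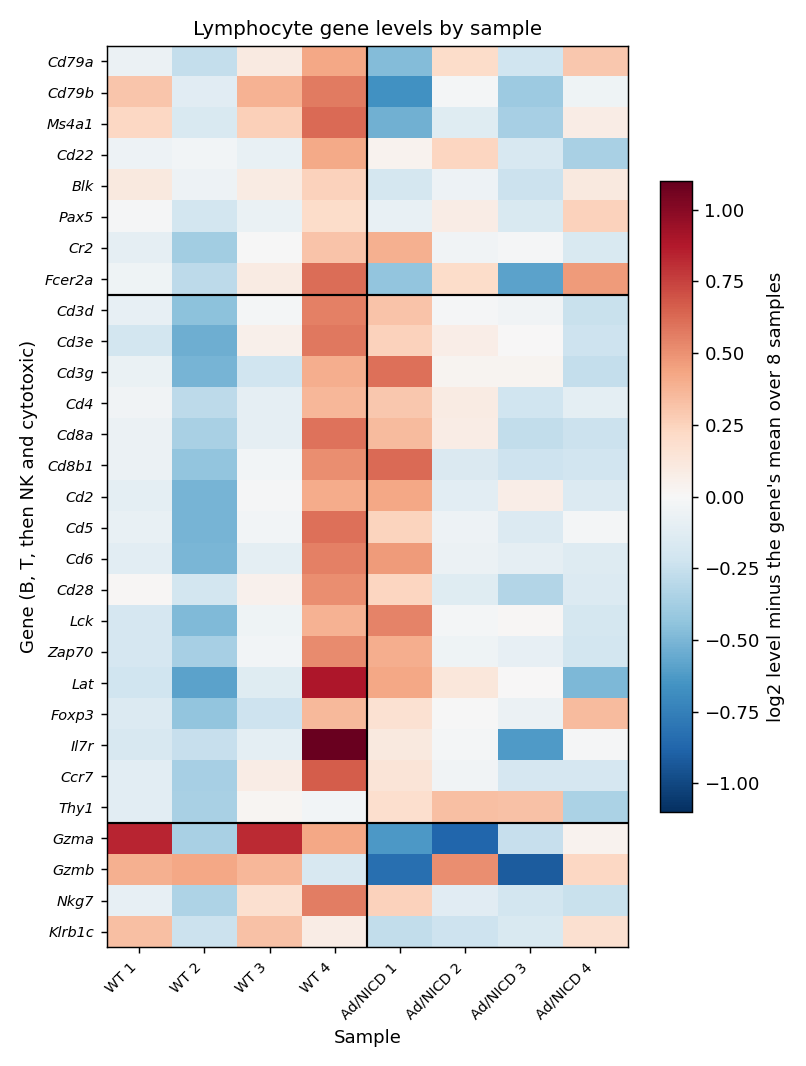
Colours give the log2 level of each lymphocyte gene (rows) in each sample (columns) minus the gene's mean over the 8 samples. WT sample 2 was lowest for 15 of 17 T cell genes, WT sample 4 highest for 12 of 17 T and 6 of 8 B cell genes, and Ad/NICD sample 1 above the mean for 17 of 17 T cell genes and for 2 of 8 B cell genes.

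Of 24 measured genes on the list of other T cell genes, 7 were above 0 and 17 below, with a median of -0.03 and array medians of 0.33, 0.27, -0.14 and -0.51. All 24 were below 0 on array 4, and WT sample 4 was above the mean for 24 of 24. None passed the adjusted test. Tcf7, a transcription factor of early and naive T cells, gave 0.64, 0.62, 0.082 and -0.68. Tbx21 (T-bet), which directs type 1 responses in T and NK cells, was below 0 on 4 of 4 arrays at -0.26 ± 0.10 (adjusted p = 0.323, limma).

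Gzma, a granule protease of NK and killer T cells, had the largest ratio of the 29 and the only one of 1 sign throughout. Its levels were 11.35, 10.15, 11.33 and 10.94 in WT samples 1 to 4 and 9.88, 9.64, 10.26 and 10.56 in Ad/NICD samples 1 to 4. WT samples 1, 3 and 4 lay above all 4 Ad/NICD samples, and WT sample 2 lay below Ad/NICD samples 3 and 4. The group means were 10.94 ± 0.56 and 10.08 ± 0.41 (SD, n = 4). The ratio of -0.86 ± 0.20 is 0.551-fold and did not pass the test (adjusted p = 0.169, limma).

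Gzmb, the second granule protease, did not follow Gzma on every array. It had levels of 8.44, 8.47, 8.42 and 7.87 in WT samples and 7.22, 8.56, 7.14 and 8.28 in Ad/NICD samples, low in WT sample 4 and in Ad/NICD samples 1 and 3. Klrb1c (NK1.1), a receptor of NK cells, gave ratios of -0.60, 0.0026, -0.49 and 0.094, with the signs of Gzmb. The 5 erythroid genes, which mark red blood cells, had array medians of -0.91, -0.31, -1.21 and -0.37, beside -1.47, -0.51, -1.07 and -0.38 for Gzma; their part in the Gzma values was not tested.

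Nkg7, a granule protein of NK and killer T cells, went with the T cell genes instead. Its ratios were 0.35, 0.22, -0.38 and -0.81, and its second probe gave 0.50, 0.53, 0.0043 and -0.55, so that the means of its probes differed in sign, at -0.16 and 0.12. The cytotoxic class of 4 genes thus held a gene with the T cell order of arrays beside 3 without it.

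On the list of 20 other NK and cytotoxic genes the median was -0.08, with 13 genes below 0 and array medians of -0.09, 0.10, -0.10 and -0.10, and none passed the adjusted test. Ncr1 (NKp46), a receptor specific to NK cells and some innate lymphoid cells, was below 0 on 4 of 4 arrays at -0.24 ± 0.089. The cytokine gene Ifng was too, at -0.23 ± 0.088, whereas the granzyme Gzmk was above 0 on 4 of 4 at 0.36 ± 0.18, with ratios of 0.15, 0.058, 0.20 and 1.03 and a mean of 0.13 without replicate 4. Their adjusted p-values were 0.31, 0.32 and 0.421 (limma). Prf1 (perforin), which opens pores for granzymes, gave 0.12, 0.32, 0.043 and -0.32, and Klrd1 (CD94), an NK receptor, -0.23, 0.56, 0.039 and 0.15.

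**Figure D3:**
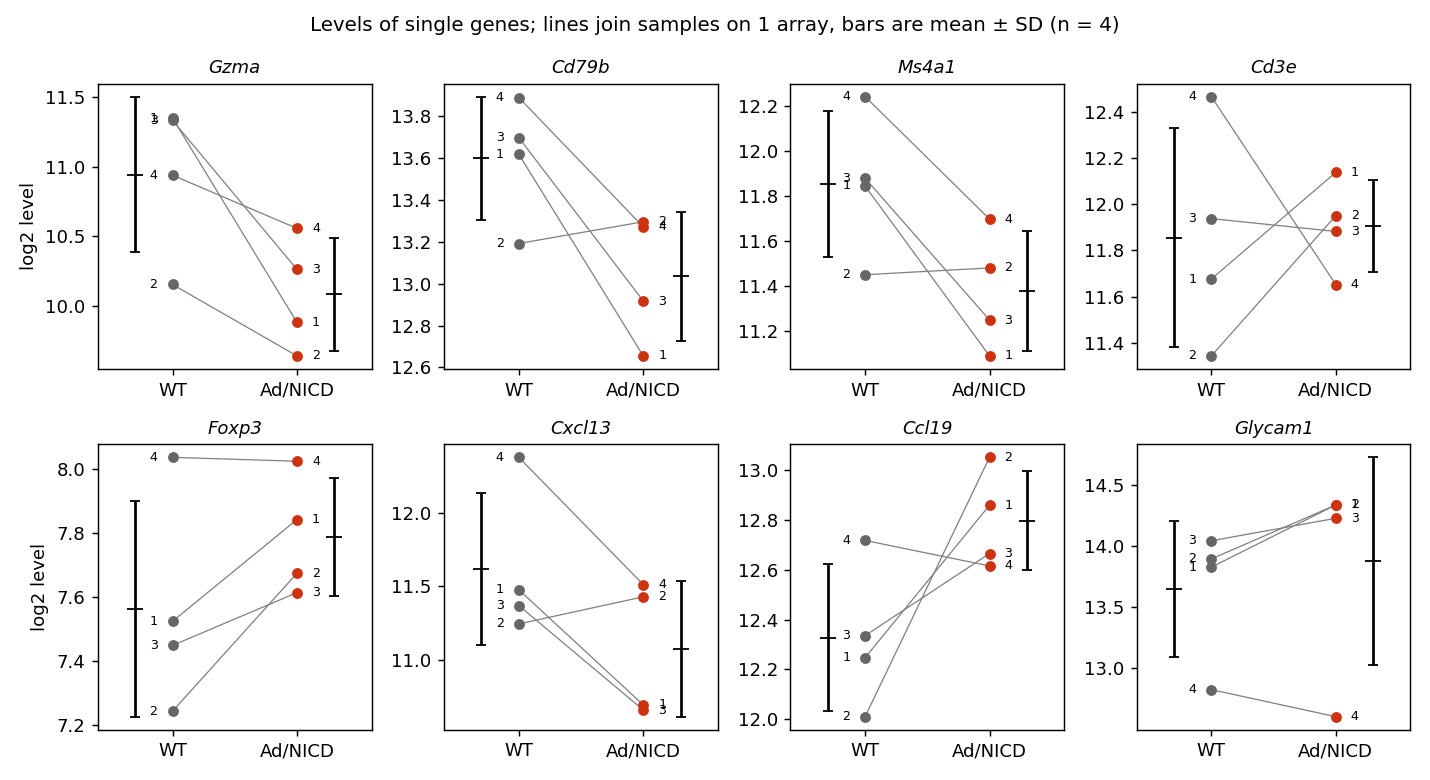
Log2 levels (y axes, each with its own range) in WT and Ad/NICD samples for 5 lymphocyte genes and 3 lymph node stroma genes; numbers are replicates, lines join the samples of 1 array and bars are mean ± SD (n = 4). Gzma was lower in the Ad/NICD sample on 4 of 4 arrays, Cd79b, Ms4a1 and Cxcl13 on 3 of 4, and the groups overlapped in each of the 8 genes.

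Genes of lymph node stroma and of high endothelial venules, the vessels through which lymphocytes enter a node, were examined beside the lymphocyte genes. This list also held Lta and Ltb, which stayed in the list values given here. On arrays 1 to 4 Lta gave ratios of 0.10, 0.26, -0.03 and -0.43 and Ltb 0.60, 0.35, -0.07 and -0.63. These are the signs of the T cell medians. Of 18 listed genes 17 had a probe and 15 were tested; 15 were well above background in all 8 samples and 1 in none (Gp2), and Ccl21a had no matched probe. The median level of the 15 tested genes relative to each gene's mean spanned 0.24 between samples, from WT sample 2 to Ad/NICD sample 2. The same span was 0.96 for the T cell genes, 0.74 for the B cell genes and 0.81 for the NK and cytotoxic genes. A median over genes that differ in direction can vary less than the genes do, so the 0.24 does not show steady stroma genes. Cxcl13 ran from 10.65 to 12.38, Glycam1 from 12.61 to 14.34 and Ccl19 from 12.01 to 13.05, while others such as Chst4 (8.14 to 8.77) varied less. The summed level of the list ran from 16.35 to 16.61 in WT and from 16.44 to 16.80 in Ad/NICD samples. Levels were summed before taking the log, so the sum mostly reflects the brightest genes, such as Mfge8 (15.02 to 15.51) and Ltb (13.88 to 14.91).

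**Figure D4:**
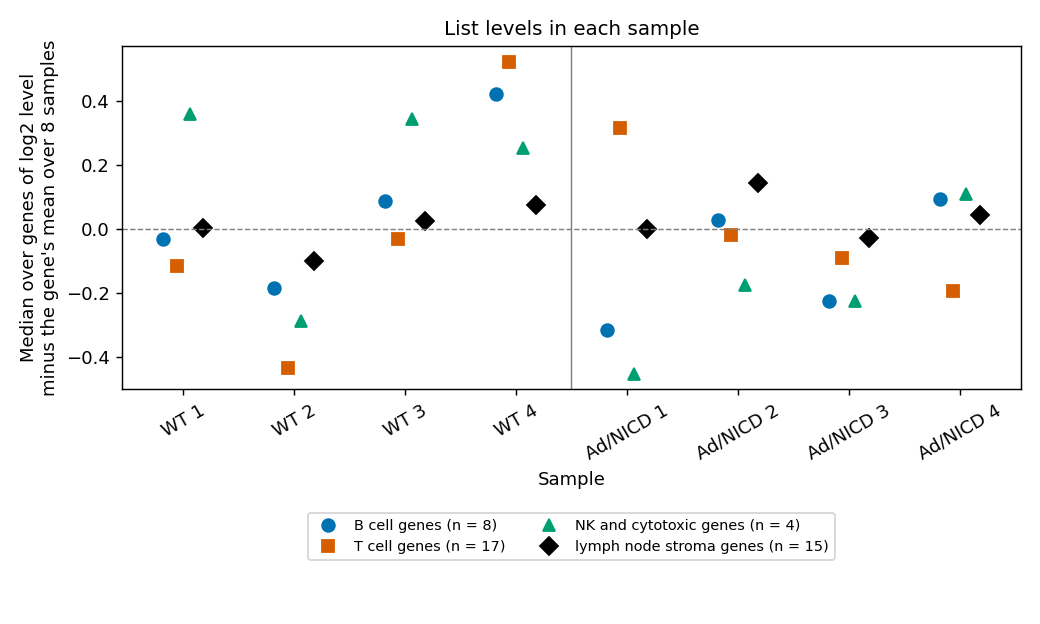
Each point is the median over the genes of a list of the log2 level minus the gene's mean over 8 samples (y axis), for each sample (x axis). The T cell genes ran from -0.44 in WT sample 2 to 0.52 in WT sample 4. The median of the lymph node stroma genes stayed between -0.10 and 0.14, although some of its single genes varied more.

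Single stroma genes did not move as 1 group. Glycam1, a ligand of high endothelial venules that is also made by mammary epithelium, had levels of 13.83, 13.90, 14.04 and 12.83 in WT and 14.34, 14.34, 14.23 and 12.61 in Ad/NICD samples. It was lowest in both samples of replicate 4, including WT sample 4, where the T and B cell genes were highest. Madcam1, an adhesion molecule of venules and marginal sinus, was highest in WT sample 4 (9.59) and ran from 8.77 to 9.32 in the others.

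The chemokines of the zones of a lymph node differed from each other. Cxcl13, which draws B cells into follicles, had levels of 11.48, 11.24, 11.37 and 12.38 in WT and 10.69, 11.43, 10.65 and 11.51 in Ad/NICD samples, lowest in Ad/NICD samples 1 and 3 and highest in WT sample 4. Its ratio was -0.55 ± 0.19 (SE, n = 4; adjusted p = 0.286, limma), with ratios of -0.79, 0.19, -0.71 and -0.87, below 0 on the same 3 arrays as Cd79b and Ms4a1. Ccl19, which draws T cells into the T cell zone, had levels of 12.25, 12.01, 12.34 and 12.72 in WT and 12.86, 13.05, 12.67 and 12.62 in Ad/NICD samples and ratios of 0.61, 1.04, 0.33 and -0.10. Ccl19 was above 0 on arrays 1 to 3 and below 0 on array 4, and its mean of 0.47 ± 0.19 had an adjusted p of 0.337 (limma). In Ad/NICD sample 1, Cxcl13 and the B cell genes were thus low while Ccl19 and the T cell genes were high.

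Cxcl13, Ccl19, Glycam1 and Madcam1 were thus well above background in all 8 samples and not in 1 or a few. Whether the lymphocyte levels of single samples reflect how much lymph node each held was not tested. The pan-leukocyte list of 10 genes, with Ptprc (CD45) among them, was lowest in WT sample 2 (-0.44) and highest in WT sample 4 (0.36), the same samples as the T cell genes. Macrophage genes, another list of 10, were lowest in WT sample 4 (-0.53) and had array medians of -0.59, 0.42, -0.04 and 0.70, with the opposite sign to the T cell genes on arrays 1 and 4.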

How the data were processed

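Total RNA of 4 WT and 4 Ad/NICD samples was hybridised to 4 arrays of 2 colours, read with Agilent Feature Extraction 11.5, per the submitters' processing notes. The deposited scanner tables give intensity per spot, without normalisation between arrays; same-numbered WT and Ad/NICD tables are identical. The authors' value table is on a log2 scale: each column equals log2 of 1 channel's processed signal minus a constant, as found from the deposited values, with column medians from -3.84 to -3.52.

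Background was corrected with normexp (offset 50), arrays were normalised by loess, and spots of a probe were averaged (limma 3.58.1, R 4.3.3). Probes well above background in a channel on at least 3 arrays were kept, 34468 of 55681. Replicate 1 lacks these flags; rebuilding them at 6 robust SDs of the negative controls matched 98.29% to 99.99% of the scanner's flags on the other arrays. Of the probes, 28026 matched a RefSeq symbol (GRCm38.p6, names only) and 27655 kept the deposited name.

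Per gene, lmFit and eBayes tested the 4 ratios against 0, with p-values adjusted by Benjamini-Hochberg over all genes; the fit was checked on simulated data. Levels are channel signals after loess and Aquantile scaling. Same-numbered samples were treated as pairs because they share an array. Their deviations from the group means correlated at 0.176, 0.169, 0.562 and 0.528, against -0.53 to 0.283 between samples of different numbers. WT sample 1 correlated more with Ad/NICD sample 3 (0.283) than with Ad/NICD sample 1, so these values bear out the pairs only in part. Alternatives changed the background, offset, normalisation, filter, probe summary, source, moderation, block and replicates.

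The members and lists were chosen with earlier results of these data known. All 29 members are named. Of other lists, at most 3 genes were named, by lowest unadjusted p among those of 1 sign on 4 arrays, with Cxcl13, Ccl19, Glycam1, Madcam1, Notch1 and Heyl whatever their values. Cxcr5, Tcf7, Prf1, Klrd1, Lta, Ltb, Jchain, Gata3, Xist, Ddx3y, Eif2s3y, Prox1, Flt4 and Mmrn1 were named after their values were seen.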

Additional observations from a re-analysis of the deposited data

Results flagged for a closer look

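Each group of 4 samples, and the 4 ratios, of every lymphocyte gene were searched for a sample far from the other 3, in 87 sets of 4 values, of which chance picks out about 1 in 20. Of the 6 found, 3 were in WT sample 4. There Cd22 had a log2 level of 9.329 against 8.826 to 8.88 in the other WT samples, Il7r had 11.71 against 10.36 to 10.51, and Gzmb had 7.872 against 8.415 to 8.471. Another 2 were in Ad/NICD sample 1, where Cd8b1 was at 11.4 against 10.55 to 10.62 and Cd6 at 12.53 against 11.92 to 11.99 in the other Ad/NICD samples. The last was Il7r in Ad/NICD sample 3, at 9.996 against 10.6 to 10.72.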

How the results depend on the processing

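Under an unadjusted 0.05 there were 1 to 13 of the 29 lymphocyte genes in the 14 alternatives run (3 in the reported fit). The 13 came with median centring, where 9619 of all 25141 gene names also lay under 0.05, against 3828 in the reported fit. No lymphocyte gene passed the adjusted p of 0.05 under any alternative. With median centring the smallest adjusted p among the 29 was 0.0776 (Cd28, limma). The count of all gene names past the threshold was 12, and became 5 with the deposited processed signals, 3 with the authors' value table, 0 with median centring, 0 with no filter on dim probes, 496 with the array as a random replicate block and 256 with no replicate block. It was 0 without replicate 1, 2 or 3 and 43 without replicate 4. With 4 arrays these counts rest on few samples. Median centring, which moved the median of all gene names to -0.32, put the median of B cell genes at -0.55 and of all 29 at -0.48.

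Without regard to that shift, median centring turned the sign of Pax5 (-0.21), Cr2 (-0.39), Cd3d (-0.38), Cd3e (-0.40), Cd3g (-0.25), Cd4 (-0.48), Cd8b1 (-0.49), Cd2 (-0.27), Cd5 (-0.39), Cd6 (-0.35), Lck (-0.18), Zap70 (-0.39), Lat (-0.45), Foxp3 (-0.12) and Thy1 (-0.073). Among other genes it turned Sox13 (-0.090), Il1rl1 (-0.046), Bst1 (-0.17), Chst4 (-0.33), Pdpn (-0.031), Glycam1 (-0.086) and Notch1 (-0.14). Relative to the median of all gene names, 6 of these 15 lymphocyte genes (Pax5, Cd3g, Cd2, Lck, Foxp3 and Thy1) and 6 of the 7 others (all but Chst4) kept their sign, between 0.045 for Cd2 and 0.29 for Pdpn. The sign of Cd8a turned with the processed signals (0.019) and with the mean of its probes (0.0046), and that of Cr2 with the mean of its probes (-0.077). Some dim genes had wider ratios with an offset of 10 than with 50: Blk -0.39 against -0.19, Ncr1 -0.41 against -0.24 and Gzmk 0.55 against 0.36.

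Leaving out each replicate in turn gave ranges that cross 0 for 17 genes: Cd79a -0.28 to 0.0074, Cd22 -0.26 to 0.089, Pax5 -0.037 to 0.089, Cr2 -0.052 to 0.27, Cd3d -0.13 to 0.28, Cd3e -0.14 to 0.34, Cd4 -0.084 to 0.20, Cd8a -0.20 to 0.22, Cd8b1 -0.22 to 0.26, Cd2 -0.026 to 0.34, Cd5 -0.14 to 0.22, Cd6 -0.083 to 0.35, Lck -0.019 to 0.42, Zap70 -0.16 to 0.28, Lat -0.20 to 0.50, Ccr7 -0.29 to 0.11 and Nkg7 -0.32 to 0.062. The cause of these changes was not tested.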

Other observations

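Genes of plasma cells and germinal centres had the signs of the B cell genes on arrays 1 to 3 and not on array 4. Their median ratios were -0.48, 0.12, -0.14 and 0.64 on arrays 1 to 4, with 9 of 10 genes above 0 on array 4, where 7 of 8 B cell genes were below 0. Jchain, which joins the chains of secreted IgA and IgM, gave -1.43, 0.46, -1.14 and 2.01, and its level in Ad/NICD sample 4 was 12.31, the highest of the 8. Irf4, a transcription factor of plasma cells that fat cells and macrophages also express, was lower on 4 of 4 arrays with groups that did not overlap (10.30, 11.07, 10.42 and 10.01 in WT and 9.84, 9.79, 9.43 and 9.77 in Ad/NICD samples), at -0.74 ± 0.19 (SE, n = 4; adjusted p = 0.193, limma).

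Among 8 measured innate lymphoid and gamma delta T cell genes, Il1rl1, the receptor for the alarmin Il33, had levels of 8.56, 8.49, 8.45 and 7.66 in WT and 8.62, 8.66, 8.94 and 8.59 in Ad/NICD samples, without overlap. It was higher on 4 of 4 arrays, at 0.41 ± 0.16 (SE, n = 4; adjusted p = 0.314, limma). Gata3, a factor of type 2 lymphocytes and of mammary epithelium, was lowest in both samples of replicate 4, at 9.19 and 8.85. Lyve1, of lymphatic endothelium and some macrophages, was higher on 4 of 4 arrays at 1.13 ± 0.16 (adjusted p = 0.117, limma). Its levels were 9.48, 9.86, 9.45 and 9.34 in WT and 10.42, 11.51, 10.20 and 10.50 in Ad/NICD samples. The 5 measured lymphatic endothelial genes had a median ratio of 0.03, with 3 above 0 and 2 below. Pdpn was also higher on 4 of 4 arrays, at 0.48 with its brightest probe, and was at 0.21 with the mean of its kept probes. Prox1 (0.026), Flt4 (-0.042) and Mmrn1 (-0.016) lay near 0. Prox1 was well above background in 3 of 8 samples and Flt4 in 6. The ratios of these genes did not pass the adjusted test.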
